A study of Mus musculus with 45 samples.

Results

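The pituitary hormone genes measured on the brain arrays were Gh, Prl, Pomc, Cga, Tshb, Lhb and Fshb, together with the pituitary transcription factor gene Pou1f1 and the receptor gene Ghrhr. These are 9 of the 22080 genes of the deposited table. They were chosen by name, with earlier results of the same brain arrays known, so their brain values are given as a description without p-values. Male C57BL/6 mice aged 7 weeks were assigned to 5 groups of 8. Control mice ate the AIN-93 diet, and HCD mice ate this diet with 0.5% cholesterol. HCD+Gl-1 and HCD+Gl-2 mice ate the cholesterol diet with 1.0% of an extract of the mushroom Ganoderma lucidum, which for Gl-2 had been grown on a substrate containing acetylsalicylic acid, and HCD+Sim mice ate it with simvastatin, a cholesterol-lowering statin, at 0.03%. The mice were killed on day 43. The methods name liver and kidney as collected then and do not mention brain. RNA of brain, liver and kidney was measured on 3 Affymetrix arrays per tissue and diet, 45 in all. The labels say brain and do not say which regions were dissected or whether the gland was included. The methods describe pools A and B, each from 4 of the 8 mice, and a pool C that combines both, so a group of 3 arrays rests on 2 separate pools and a single mouse cannot be followed.

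The anterior pituitary is a gland that hangs below the hypothalamus and is not part of the brain proper. Its cell types each release their own hormone into the blood. Somatotrophs make growth hormone (Gh), lactotrophs prolactin (Prl), corticotrophs the precursor of adrenocorticotropic hormone (Pomc), thyrotrophs thyrotropin, and gonadotrophs luteinizing and follicle-stimulating hormone. Thyrotropin and the gonadotroph hormones share the alpha subunit encoded by Cga and differ in their beta subunits, encoded by Tshb, Lhb and Fshb. Pou1f1 (Pit-1) is the transcription factor that somatotrophs, lactotrophs and thyrotrophs depend on, and Ghrhr is the receptor through which hypothalamic growth hormone-releasing hormone acts on somatotrophs. Pomc is also transcribed in neurons of the hypothalamus, and Gh at a low level in brain itself.

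The tissue labels held for the defining markers. The mean log2 expression of 9 brain markers, among them Snap25 and Gfap, lay between 11.3 and 11.5 on the 15 brain arrays, against 6.92 to 7.12 on the liver arrays and 6.21 to 6.41 on the kidney arrays. Markers of single brain regions varied between arrays of the same group. The mean of 7 cerebellar genes was 9.68 in Control pool A and 10.19 in pool B but 6.51 in pool C, which the methods give as their mix. On HCD arrays A, B and C the same mean was 8.78, 8.13 and 9.25, and over all brain arrays it ran from 6.51 to 10.19. Control pool C therefore did not read as a mix of pools A and B, and differences from Control are also given without it for Gh, Prl, Cga, the listed genes called in brain and the main lists. On this mean pool C lay outside pools A and B in every other brain group too, though by less. On arrays A, B and C it was 8.78, 8.59 and 8.58 in HCD+Gl-1, 7.79, 8.25 and 6.91 in HCD+Gl-2, and 8.49, 7.86 and 9.03 in HCD+Sim. In whole-tissue RNA, fewer cells of a type and less RNA per cell cannot be told apart.

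Gh was the pituitary gene that varied most between the brain groups. Its log2 expression was 6.56, 6.55 and 7.46 on Control arrays A, B and C. It was 8.06, 8.76 and 7.64 on the HCD arrays, and 9.10, 9.20 and 8.95 on the HCD+Gl-1 arrays. All 3 HCD arrays were above all 3 Control arrays, and all 3 HCD+Gl-1 arrays were above both. The HCD+Gl-2 arrays read 7.29, 7.25 and 7.21, and the HCD+Sim arrays 7.63, 7.76 and 8.10. The HCD+Gl-2 arrays lay wholly below the HCD arrays, above Control arrays A and B and below Control array C, while the HCD+Sim arrays overlapped the HCD range. The order of the group means was HCD+Gl-1 (9.08 ± 0.12, SD, n = 3), HCD (8.15 ± 0.57), HCD+Sim (7.83 ± 0.24), HCD+Gl-2 (7.25 ± 0.04) and Control (6.86 ± 0.52). Of these neighbours, HCD and HCD+Sim did not separate, nor did HCD+Gl-2 and Control, the latter through Control array C alone. The distance of 2.23 between the highest and lowest group mean was the largest of all 22080 genes, against a median of 0.17 over all genes. The SD within groups was 0.36 for Gh, against a median of 0.11 over all genes.

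**Figure D1:**
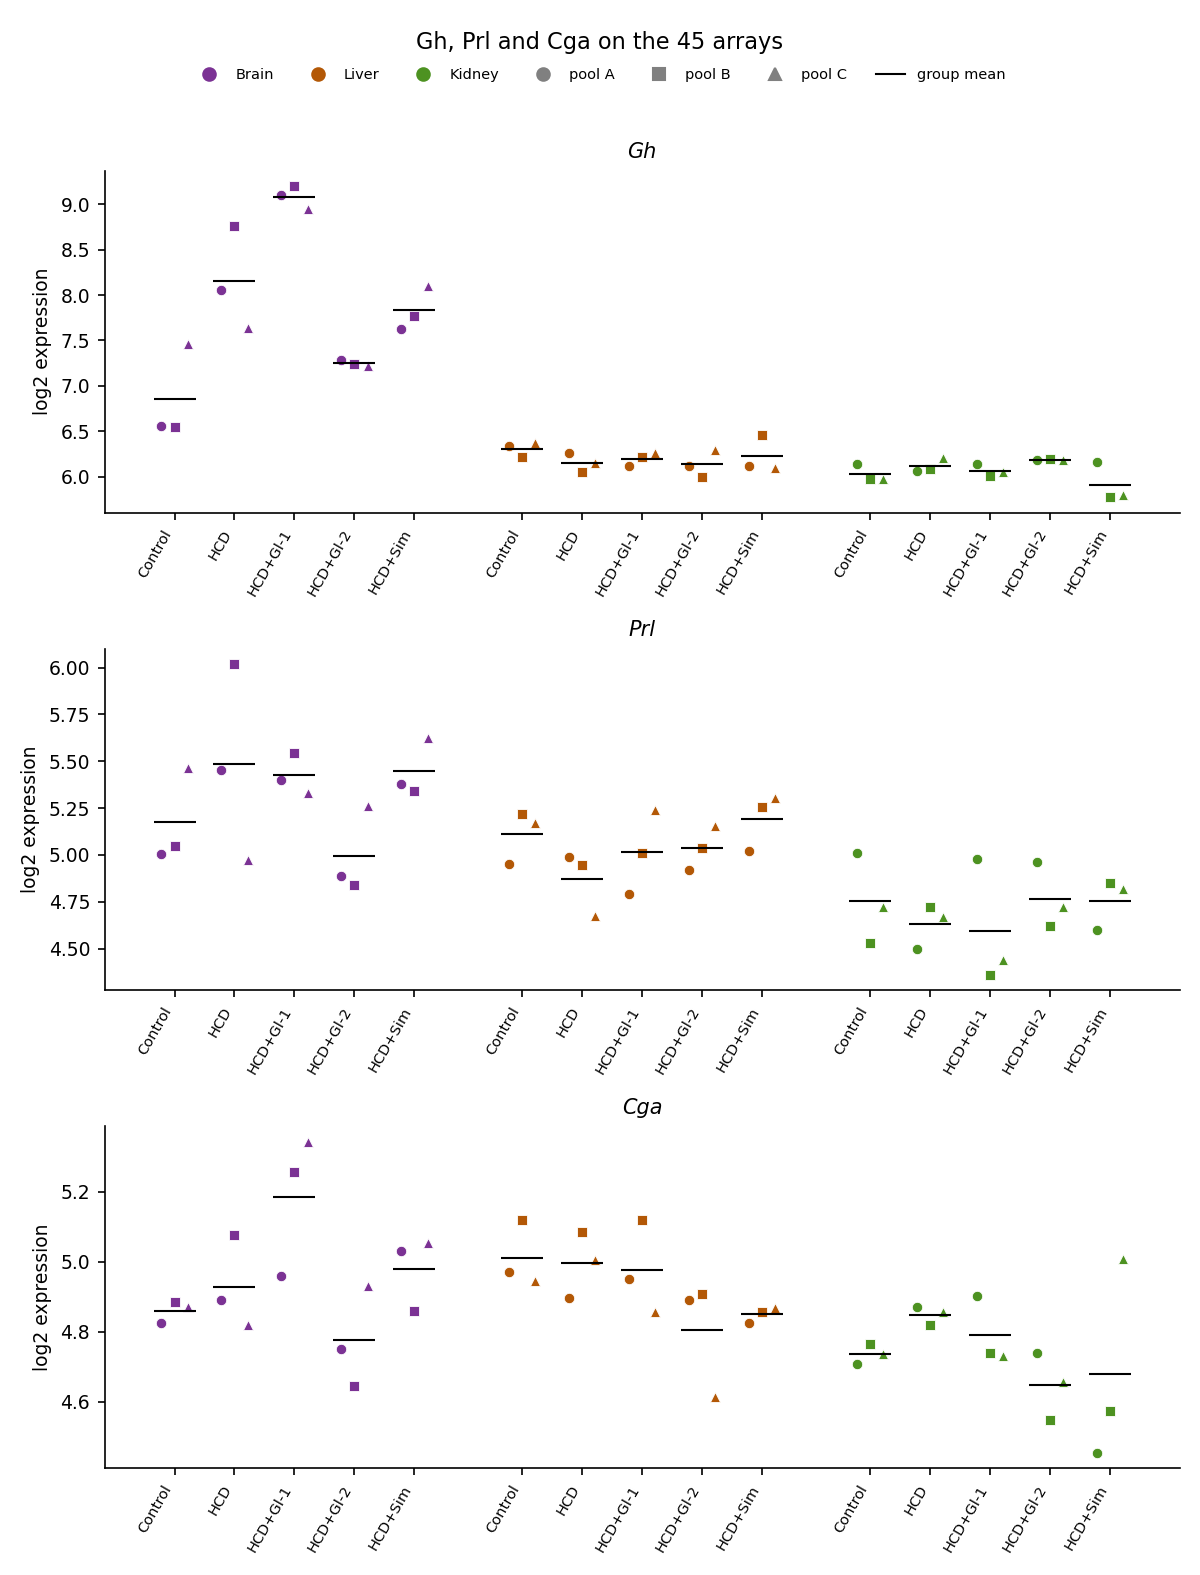
Log2 expression of Gh, Prl and Cga on the 45 arrays, by tissue (colour), diet group (x axis) and pool (marker shape), with the mean of each group as a line; each gene has its own y axis. Gh ran from 6.55 to 9.20 in brain and from 5.78 to 6.46 in liver and kidney, whereas the brain values of Prl and Cga overlapped those of the other tissues.

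Liver and kidney, where the gene is not known to be a main product, gave the background level of the Gh probe set. Gh ran from 6.00 to 6.46 on the liver arrays and from 5.78 to 6.21 on the kidney arrays. All 15 brain arrays were above all 30 of these. The mean of the Control brain arrays was 0.72 above the median of the liver and kidney arrays on the log2 scale, and that of the HCD+Gl-1 arrays 2.94 above it. Control pools A and B were thus close to the background, by as little as 0.09 above the highest liver or kidney array. A log2 fold change against Control is set in part by this floor, and it may understate the change in transcript. Gh lies on chromosome 11 (chr11:106300261-106303703 in RefSeq, GRCm38.p6).

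The comparison of HCD with Control addressed the effect of dietary cholesterol. A gene was called differentially expressed (DE) where the absolute log2 fold change was over 0.7 and the adjusted p from limma was at most 0.05. Of the 9 genes, 1 was DE, beside 0.0317% of all genes, and this share cannot be weighed because the genes were picked with these values known. The same holds for the 9 genes in every other brain comparison. Their brain calls, and whether a call outlasts a left-out array or another fit, describe the values and are not a test. That gene was Gh, higher in HCD by 1.29 (standard error 0.18), a 2.45-fold difference and the highest rank of all 22080 genes. This standard error rests on a spread shared by all 45 arrays. The SD of Gh within groups was 0.01 to 0.22 in liver and kidney, at background, against 0.36 in brain. The standard error is therefore smaller than the brain arrays alone give, in every brain comparison of Gh. The difference was 1.59 without Control array C, 0.99 without HCD array B and 1.85 with pools A and B only, and Gh remained DE in each. The call was lost in a fit on the 15 brain arrays alone or on the 6 compared arrays alone, where the standard error was 0.24 and 0.32. The other 8 genes differed by -0.09 to 0.31. Of the 9 genes only Gh had groups that did not overlap, beside 11.7% of all genes.

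HCD+Gl-1 was set against HCD to see what the first extract did on top of the cholesterol diet. Gh was higher in HCD+Gl-1 by 0.93 (standard error 0.18), a 1.91-fold difference, again the highest rank of all genes. Of the 9 genes 1 was DE, against 0.00906% of all genes. The groups of 2 genes did not overlap, Gh and Pou1f1, against 13.7% of all genes. The Gh call did not survive the loss of 1 array in most cases. It was lost without HCD array A (0.89), HCD array C (0.67), or HCD+Gl-1 array A (0.92), B (0.87) or C (1.00), and it remained without HCD array B (1.23). With pools A and B only the difference was 0.74, and Gh was not DE. In fits on the brain arrays alone and on the 6 compared arrays alone Gh was not DE either.

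The second extract went with the opposite difference. Gh was lower in HCD+Gl-2, at a log2 difference from HCD of -0.90 (standard error 0.18), 0.535 of the HCD level. Again 1 of the 9 genes was DE, against 0.0226% of all genes, and only the Gh groups did not overlap, against 14.6%. Among liver markers measured on these brain arrays, 6 of 7 had an unadjusted p under 0.05 (6.65% of all genes), of which Alb, Apob, Ahsg, Serpina1a and Cyp2e1 were higher in HCD+Gl-2 and Ttr, also a choroid plexus gene, was lower. None was DE, and the lowest adjusted p was that of Apob (0.41, adjusted p 0.0273). Their mean was 6.58 to 6.82 on the HCD arrays and 6.62 to 7.34 on the HCD+Gl-2 arrays, against 13.2 to 13.3 in liver, and their part in the Gh difference was not tested. The Gh call was lost without HCD+Gl-2 array A (-0.92), B (-0.90) or C (-0.88) and without HCD array B (-0.60) or A (-0.95), and it remained without HCD array C (-1.16). It was also lost in the fits on the brain arrays alone and on the 6 compared arrays alone. The values of HCD+Gl-1 and HCD+Gl-2 against HCD share the HCD arrays, so an error in the HCD mean moves both.

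With simvastatin Gh differed from HCD by -0.32 (standard error 0.18). None of the 9 genes was DE in HCD+Sim against HCD, where the share of all genes was 0% and limma gave an unadjusted p under 0.05 for 5.53% of all genes. No pituitary gene had groups that did not overlap, against 15.4% of all genes. Without HCD array B the Gh difference was -0.02, and without HCD array C it was -0.58.

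**Figure D2:**
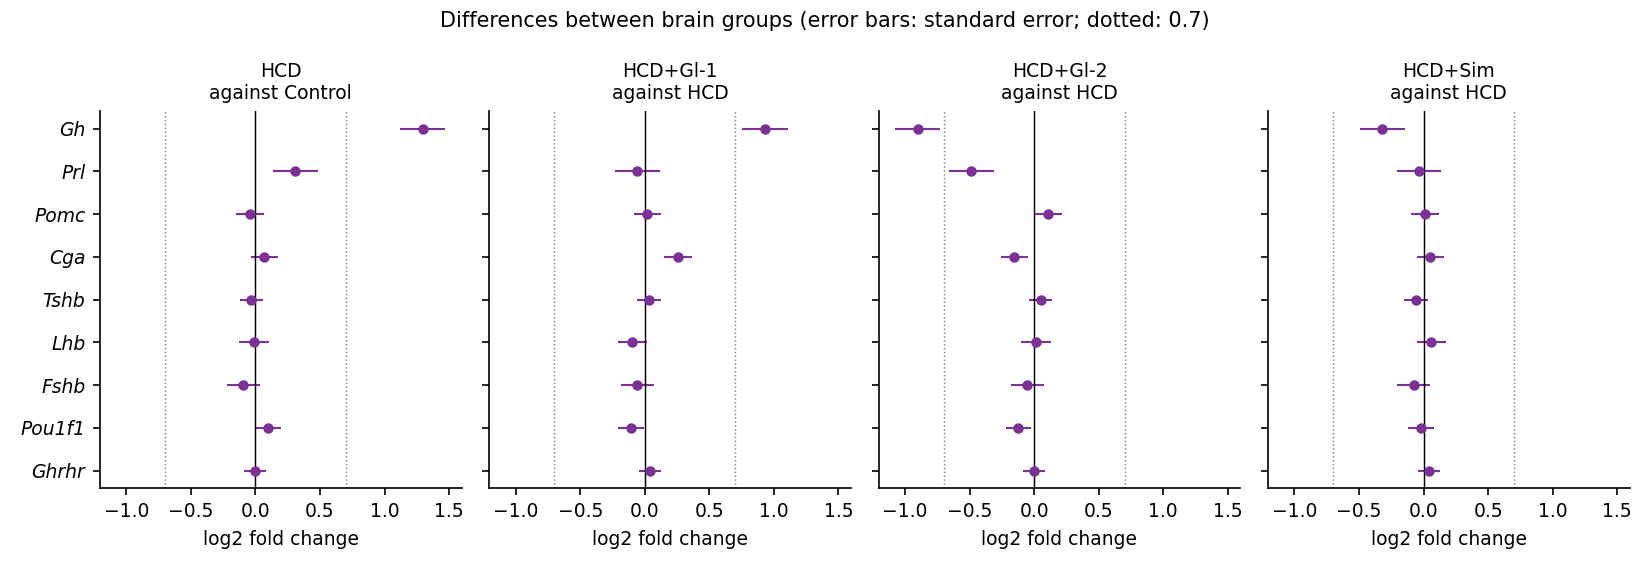
Log2 fold changes of the 9 genes in 4 brain comparisons (points), with the standard error of the limma fit to all 45 arrays as bars and dotted lines at the threshold of 0.7. Gh lies past the threshold in the first 3 comparisons, at 1.29, 0.93 and -0.90, and none of the other genes reaches it.

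Against Control, Gh was higher by 2.23 in HCD+Gl-1, by 0.97 in HCD+Sim and by 0.39 in HCD+Gl-2, each with a standard error of 0.18. Gh was DE in HCD+Gl-1 and in HCD+Sim, 1 gene of 9 in each, against 0.00453% and 0.00906% of all genes, and no pituitary gene was DE in HCD+Gl-2, against 0.186%. The groups did not overlap for Gh and Cga in HCD+Gl-1 (12% of all genes), for Gh in HCD+Sim (14.6%) and for no pituitary gene in HCD+Gl-2 (14.5%), where Control array C was the array of Gh that crossed. Without Control array C the differences were 2.53, 1.27 and 0.69. The HCD+Gl-1 call held without any 1 array, from 2.07 to 2.53, and in the fits on the brain arrays or the compared arrays alone. The HCD+Sim call was lost when Control array A (0.83), Control array B (0.82) or HCD+Sim array B (1.01) was left out, and in the fits on the brain or compared arrays alone. With pools A and B only, Gh was also DE in HCD+Gl-2, at 0.71.

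By the methods, pool C is a further reading of the RNA of pools A and B. The log2 of the mean of the unlogged A and B values was 6.56 in Control, whereas pool C read 7.46, a difference of 0.90. In HCD the mix would have read 8.45, and pool C read 7.64, 0.81 lower. In none of the 5 brain groups did Gh in pool C lie between pools A and B. Over all genes pool C lay between A and B for 20.4% to 33.9%, depending on the group. Few genes had A and B values that differed by at least 1. Pool C lay between them for 0 of 4 such genes in Control, 0 of 1 in HCD, 0 of 2 in HCD+Gl-2 and 0 of 1 in HCD+Sim. The HCD deviation of Gh ranked 17 by size among the 22080 genes, and that of Prl (-0.79) ranked 19. In Control the ranks were 280 for Gh and 1635 for Prl (0.44). Over all genes the median deviation was 0.12 in Control and 0.08 in HCD. For Gh, pool C was the Control array nearest to HCD and also the HCD array nearest to Control.

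**Figure D3:**
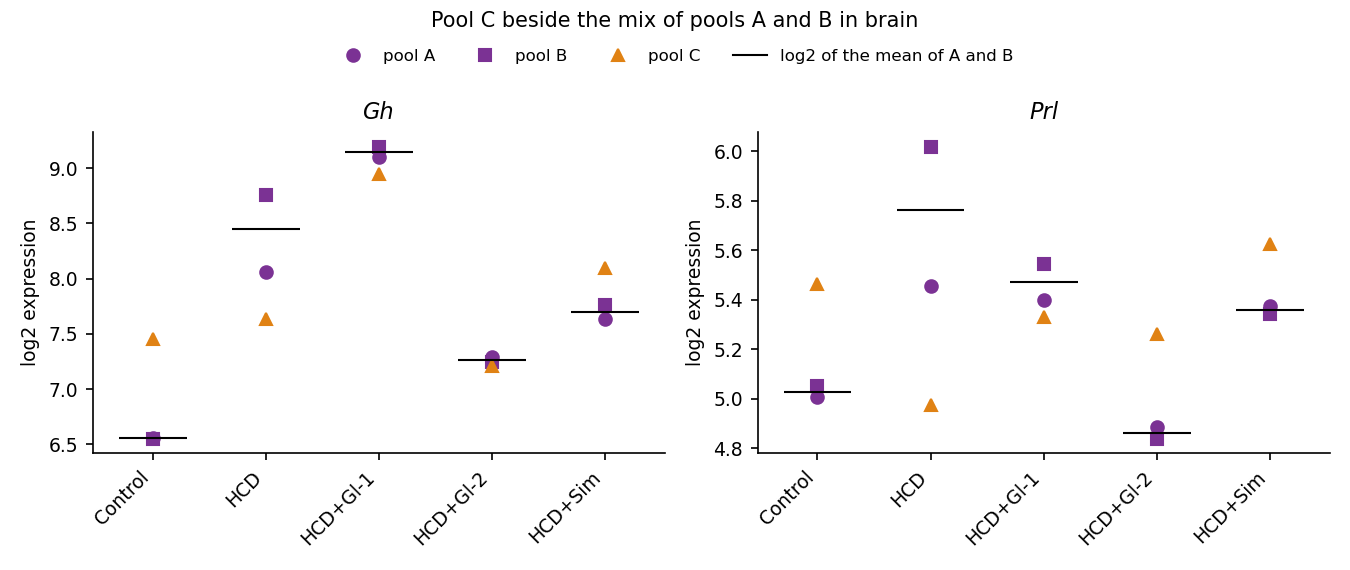
Log2 expression of Gh and Prl on brain arrays A, B and C of each diet group, with the log2 of the mean of the unlogged A and B values as a line. Pool C was above the line in Control by 0.90 for Gh and 0.44 for Prl, and below it in HCD by 0.81 and 0.79.

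Prl, which encodes the hormone of lactation, was close to background on many brain arrays. It read 5.01, 5.05 and 5.46 on Control arrays A, B and C, 5.45, 6.02 and 4.97 on the HCD arrays, and 5.40, 5.54 and 5.33 on the HCD+Gl-1 arrays. The HCD+Gl-2 arrays read 4.89, 4.84 and 5.26, and the HCD+Sim arrays 5.38, 5.34 and 5.62. On 9 of the 15 brain arrays Prl was above all liver and kidney arrays, where its highest value was 5.30; all HCD+Gl-1 and HCD+Sim arrays were among the 9, and none of HCD+Gl-2. The log2 fold changes were 0.31 in HCD against Control, -0.06 in HCD+Gl-1, -0.49 in HCD+Gl-2 and -0.04 in HCD+Sim against HCD (standard error 0.17 each), and none was DE. In HCD the 3 arrays spanned 1.04, more than any difference of Prl between group means. With pools A and B only, the difference of HCD from Control was 0.71 and Prl was DE, while without HCD array B it was 0.04 and without Control array C 0.45.

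The upstream sequences of Prl, Cga and Pou1f1 are shown because the first 2 varied with Gh over the brain arrays and the third encodes a factor that binds the Gh and Prl promoters. They are the 250 bases before the RefSeq start (GRCm38.p6, on the plus strand at chr13:27057320-27057569, chr4:34893529-34893778 and chr16:65520262-65520511), in lower case with each match to ATGNATA, a short form of the known Pit-1 binding motif, or to its reverse complement TATNCAT in capitals.
Prl: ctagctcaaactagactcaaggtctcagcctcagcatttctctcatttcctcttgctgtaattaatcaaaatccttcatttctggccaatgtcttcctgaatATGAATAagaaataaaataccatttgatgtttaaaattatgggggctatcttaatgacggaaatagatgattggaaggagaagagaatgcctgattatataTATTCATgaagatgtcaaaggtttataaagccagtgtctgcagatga
Cga: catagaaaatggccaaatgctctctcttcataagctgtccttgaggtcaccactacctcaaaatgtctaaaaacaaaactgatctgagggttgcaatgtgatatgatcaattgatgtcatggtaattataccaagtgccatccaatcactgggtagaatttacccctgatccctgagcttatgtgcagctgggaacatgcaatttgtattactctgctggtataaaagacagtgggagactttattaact
Pou1f1: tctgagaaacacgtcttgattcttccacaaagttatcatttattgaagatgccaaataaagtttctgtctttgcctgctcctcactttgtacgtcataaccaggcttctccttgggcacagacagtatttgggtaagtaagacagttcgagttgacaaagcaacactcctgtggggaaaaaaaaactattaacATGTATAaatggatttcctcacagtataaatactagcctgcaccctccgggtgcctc
The Prl stretch held 2 matches, at -148 to -142 and, on the other strand, at -47 to -41 from the start. The Pou1f1 stretch held 1, at -57 to -51, and Cga none. Among 32851 mouse promoters of the same length 7.92% held at least 1 match and 1.26% at least 2. The stretches of Pomc, Tshb, Lhb and Fshb and the second start of Pou1f1 held no match. A match describes the letters and is not a measurement of binding.

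Cga, the alpha subunit gene, had a smaller range than Prl. It read 4.83, 4.88 and 4.87 on Control arrays A, B and C, 4.89, 5.08 and 4.82 on the HCD arrays, and 4.96, 5.26 and 5.34 on the HCD+Gl-1 arrays. The HCD+Gl-2 arrays read 4.75, 4.65 and 4.93, and the HCD+Sim arrays 5.03, 4.86 and 5.05. Only HCD+Gl-1 arrays B and C were above all liver and kidney arrays, whose highest value was 5.12. The HCD+Gl-1 arrays did not overlap the Control arrays (log2 fold change 0.33, standard error 0.10, and 0.33 without Control array C), and the difference from HCD was 0.26. No Cga difference was DE.

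The beta subunit genes and, on most arrays, Pomc showed no brain signal above the other tissues. Tshb (4.57 to 4.86 in brain), Lhb (6.55 to 6.94) and Fshb (5.09 to 5.71) exceeded all liver and kidney arrays on none of the 15 brain arrays. Lhb was below all 15 liver arrays on 13 of the 15 brain arrays, and Tshb on 6. The absolute brain differences of these 3 genes among the 7 comparisons were at most 0.17, for Fshb in HCD+Sim against Control (-0.17, standard error 0.13). Pomc had a brain median of 6.05, like its liver median of 6.05, and a kidney median of 5.92. Only pool C of HCD+Gl-1 (6.32) and of HCD+Gl-2 (6.36) stood above all liver and kidney arrays for Pomc. Its group means in brain spanned 0.11, which was less than its SD of 0.15 within groups.

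The somatotroph regulators Pou1f1 and Ghrhr did not show the Gh pattern. Pou1f1 ran from 3.56 to 3.93 in brain, below 5 on every array, with medians of 3.74 in brain, 3.99 in liver and 3.88 in kidney. On 5 brain arrays it was lower than on all liver and kidney arrays. It was lower in HCD+Gl-1, where Gh was highest, than in HCD, at 3.72, 3.74 and 3.69 against 3.84, 3.87 and 3.76, a difference of -0.11 (standard error 0.10). Ghrhr ran from 7.22 to 7.57 in brain and was lower there than in liver by 0.15 on average and than in kidney by 0.11. The spread of its brain group means, 0.04, ranked 21893 among 22080 genes.

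**Figure D4:**
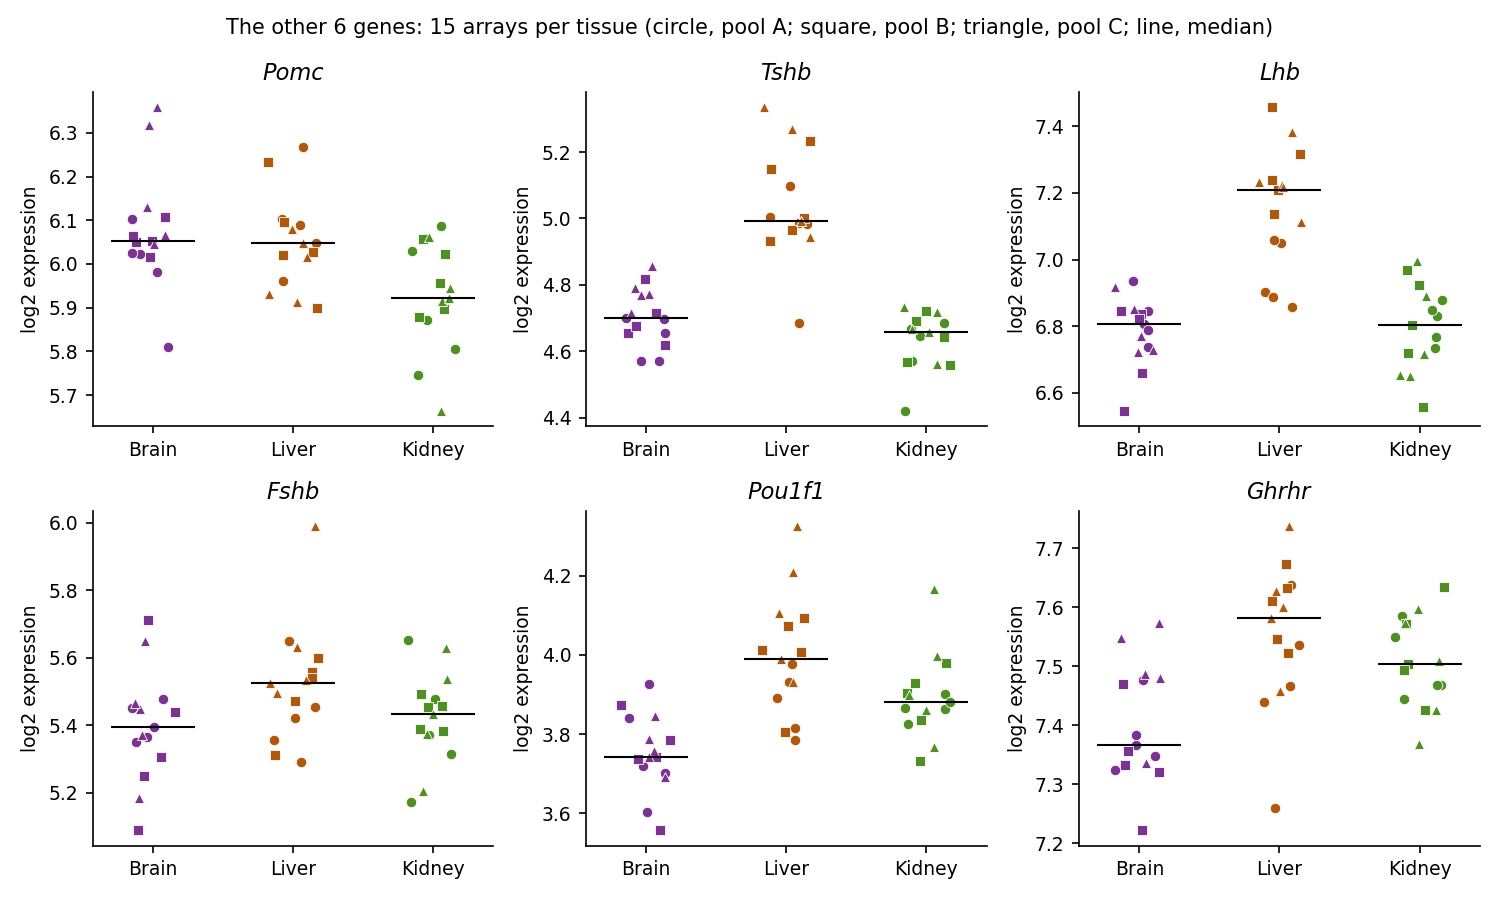
Log2 expression of Pomc, Tshb, Lhb, Fshb, Pou1f1 and Ghrhr on the 15 arrays of each tissue (points, spread sideways for clarity; marker shape gives the pool) with the median as a line; each gene has its own y axis. Apart from 2 pool C arrays for Pomc, no brain array stands above all liver and kidney arrays.

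Over the 15 brain arrays the Pearson correlation of Gh was 0.73 with Cga and 0.66 with Prl, and that of Prl with Cga 0.63. Most Cga values lay within background, since only 2 of the 15 brain arrays stood above all liver and kidney arrays, against 9 for Prl. For Pomc, Tshb, Lhb, Fshb, Pou1f1 and Ghrhr the correlation with Gh lay between -0.48 and 0.16. In liver the correlation of Gh with Prl was 0.40 and with Cga -0.20, and in kidney 0.03 and -0.22. The points are not independent, since by the methods pool C shares its RNA with A and B and all arrays were normalized together. The values are descriptions. Among the 567 genes whose brain values spanned at least 1, those most like Gh were Egr1 (0.72), Gm16489 (0.72), Cpne4 (0.68), Prl (0.66), Dlx2 (0.65), Lrrtm1 (0.63), Rab33a (0.63), Fezf2 (0.63), Cckbr (0.63) and Mlip (0.62). Egr1 is an immediate early gene that neurons transcribe on activity, and Dlx2 and Fezf2 encode transcription factors of the developing forebrain. Most like Prl were Gh, Gm4070 (0.62), the immediate early genes Egr2 (0.57) and Nr4a1 (0.56), and the neuropeptide gene Npy (0.52). Most like Pomc were Gm29779 (0.63), Rdh18-ps (0.59), Lrp11 (0.59), Olfr316 (0.56) and Pigr (0.55). Over the 10 arrays of pools A and B, the values with Pomc were 0.10 for Gm29779 and -0.16 for Rdh18-ps.

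Other genes of the gland were examined by lists. Of 13 pituitary transcription factor genes, among them Pitx1, Lhx3 and Tbx19, none was above all liver and kidney arrays on all 15 brain arrays, and 12 were not on any. Pitx1 ran from 5.74 to 6.37 in brain and from 6.24 to 7.00 in the other tissues. Of 8 receptor genes found on pituitary cells, Trhr, Crhr1, Drd2 and Sstr2 were above on all 15 arrays, and neurons express these 4 too. All 8 secretory granule genes, such as Chga and Pcsk2, were above, and they too are neuronal. The mean of the granule genes had a correlation with Gh of 0.71 over the 15 brain arrays and 0.87 over the 10 of pools A and B, and that of the receptors 0.51 and 0.66. The transcription factors gave -0.05 and -0.36. For the 9 general brain markers, among them Snap25 and Gfap, the values were 0.47 and 0.61, close to those of the receptors. None of the 29 gland genes was DE in any of the 7 brain comparisons. The median log2 fold change in HCD against Control was 0.01 for the transcription factors, 0.07 for the receptors and 0.11 for the granule genes, and without Control array C it was -0.01, 0.03 and 0.21. In HCD+Gl-1 against HCD the medians were -0.08, 0.01 and 0.09. At an unadjusted p under 0.05 limma gave 1, 2 and 1 genes in HCD against Control (6.44% of all genes) and 0, 0 and 1 in HCD+Gl-1 against HCD (5.55%). Chga, a granule protein gene, was the last of these, at 0.39 (adjusted p 0.313).

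The list of hypothalamic peptide genes held releasing and inhibiting factors of the pituitary, such as Ghrh, Trh and Sst, and peptides of feeding and arousal, such as Agrp and Hcrt. None was DE in the comparisons where Gh was. In HCD against Control 13 of 15 were above 0, with a median of 0.21 and none DE, and 7 had an unadjusted p under 0.05 (6.44% of all genes). Without Control array C the median was 0.30, and 12 were above 0. Ghrh, the stimulus of Gh, differed by 0.09 (adjusted p 0.976), and Sst, its inhibitor, by 0.21 (adjusted p 0.729). Ghrh ran from 5.75 to 6.05 in brain and from 5.65 to 6.25 in liver and kidney. No brain array stood above all of those, so a Ghrh difference could go undetected. The dissected regions are not known, so the Sst signal cannot be assigned to the hypothalamus. In HCD+Gl-1 against HCD, Ghrh differed by 0.03 and Sst by 0.05, and 5 of the 15 genes had an unadjusted p under 0.05. The 1 peptide gene called was Avp, the vasopressin gene, higher by 0.74 in HCD+Gl-2 than in Control (adjusted p 0.00228), and the call was lost without Control array A (0.66) and held without Control array C (0.84). In brain the other genes of the prolactin family (23 measured) and the glycoprotein hormone relatives Gpha2 and Gphb5 included no DE gene in the 7 comparisons. With limma 0 and 1 of them had an unadjusted p under 0.05 in HCD against Control (6.44% of all genes). The mean of the prolactin family genes was 3.83 to 3.98 on the brain arrays, below the 4.00 to 4.19 in liver, so their lack of calls says little.

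Genes of the olfactory bulb changed in some of the same comparisons. In HCD against Control the olfactory bulb genes Cdhr1 and Doc2g rose by 1.03 (adjusted p 0.000194) and 0.86 (adjusted p 0.000217), and in HCD+Gl-2 against HCD they fell by 0.86 (adjusted p 0.00731) and 0.90 (adjusted p 0.000143). Cdhr1 was not DE in the latter without HCD array A (-0.80), and neither gene was DE in a fit on the brain arrays alone or, for HCD against Control, on the compared arrays alone. In HCD+Gl-1 against HCD, where Gh was higher, Cdhr1 and Doc2g differed the other way, by -0.61 (adjusted p 0.203) and -0.59 (adjusted p 0.0883). Of the 7 olfactory bulb genes, these 2 were DE in HCD against Control, and 3 were above 0, with a median of -0.10. Without Control array C Cdhr1 and Doc2g were higher in HCD by 1.16 and 0.77, and both were DE. The mean of the 7 genes ran from 6.68 to 7.41 on Control arrays and from 7.23 to 7.44 on HCD arrays. The cerebellar mean was lowest among the Control arrays in pool C, the array with the highest Gh, and lowest among the HCD arrays in pool B, again with the highest Gh. In HCD+Sim it was highest in pool C (9.03), the array with the highest Gh. The mean of 6 striatal genes was 8.68, 8.11 and 9.61 on Control arrays A, B and C and 8.87, 9.02 and 8.72 on the HCD arrays, highest in each group on the array with the highest Gh. In HCD+Sim it was lowest in pool C (8.65). In HCD+Gl-2 pool C had the lowest cerebellar mean (6.91) and the highest striatal mean (9.40), but the lowest Gh. In HCD+Gl-1, where Gh was highest in pool B, the cerebellar and striatal means were highest in pool A (8.78 and 9.23). The correlation of the striatal mean with Gh was 0.27 over the 15 brain arrays and 0.64 over the 10 of pools A and B, and that of the cerebellar mean -0.09 and -0.43. Without Control array C the median difference of HCD from Control was -1.17 for the cerebellar genes, from -0.13, and 0.48 for the striatal genes, from 0.09. No cerebellar gene was DE in the 7 brain comparisons, although in HCD+Gl-2 against HCD their median was -0.81. The mean of the 10 choroid plexus genes ran from 7.71 to 7.85 in Control and from 7.53 to 7.64 in HCD, and that of 5 pineal genes from 5.30 to 5.39 and from 5.29 to 5.36. The part of these regions in the Gh differences was not tested.

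**Figure D5:**
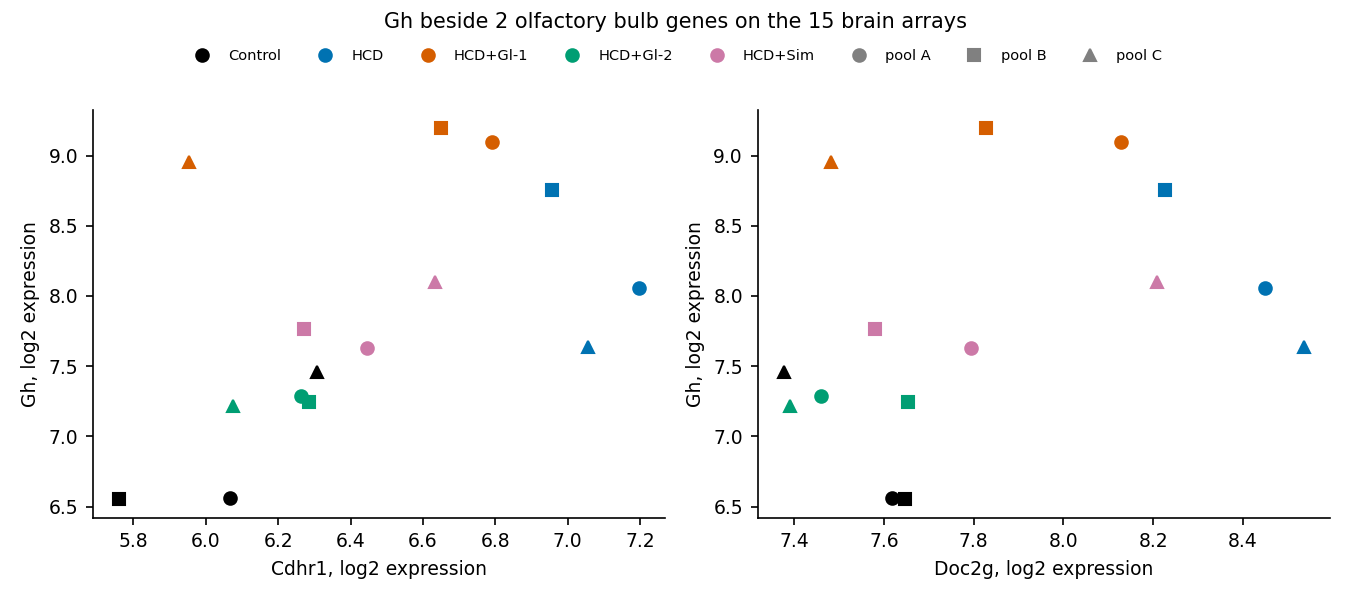
Gh against the olfactory bulb genes Cdhr1 and Doc2g on the 15 brain arrays, all as log2 expression (colour, diet group; marker shape, pool). The HCD arrays are highest for both bulb genes, while the HCD+Gl-1 arrays are highest for Gh, at 8.95 to 9.20.

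In HCD+Gl-2 against Control, where Gh was not DE, other region genes were. The choroid plexus gene Ttr, which encodes the carrier transthyretin, fell by 0.84 (adjusted p 0.00530). Eomes and Barhl2, listed here as olfactory bulb genes, fell by 0.88 (adjusted p 0.00977) and 0.89 (adjusted p 0.0278). On Control arrays A, B and C Eomes read 6.30, 6.57 and 5.20, and Barhl2 7.84, 8.24 and 6.40. Both were lowest in pool C, as the cerebellar mean was. The groups of Eomes and Barhl2 overlapped. These 2 did not stand for the list. Of the 7 olfactory bulb genes 2 were above 0, with a median of -0.05, and Cdhr1 and Doc2g differed by 0.16 and -0.05. Ttr was not DE without HCD+Gl-2 array C (-0.51) or Control array A (-0.77). Eomes was not DE without HCD+Gl-2 array C (-0.80), Control array A (-0.74) or Control array B (-0.60), nor Barhl2 without HCD+Gl-2 arrays B (-0.82) or C (-0.84), Control array A (-0.72) or Control array B (-0.52). Without Control array C the differences were larger for Eomes (-1.29) and Barhl2 (-1.44), and -0.84 for Ttr, and all 3 were DE. With pools A and B only Ttr was not DE (-0.51). None of these 3 genes, nor Avp, was DE in a fit on the brain arrays or on the compared arrays alone.

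The 9 genes were also fitted in liver and kidney, which served as the background of these probe sets, so the values describe the spread of that background. None of the 9 was DE in any of 4 comparisons per tissue. The shares of all genes called were 0.245%, 0.163%, 0.303% and 0.258% in liver and 0.0408%, 0.131%, 0.335% and 0.14% in kidney, for HCD against Control and then, with HCD as the base, for Gl-1, for Gl-2 and for simvastatin. Of the 72 log2 fold changes 4 had an unadjusted p under 0.05 with limma, 1 of 9 genes in each liver comparison and none in kidney, beside 10.3%, 16.6%, 12.6% and 11.7% of all genes in liver. The lowest adjusted p was 0.193. That was Tshb in liver HCD against Control (-0.26, standard error 0.09); Tshb in liver was higher in HCD+Gl-2 than in HCD by 0.23 and in HCD+Sim by 0.22, and Ghrhr was lower in HCD+Gl-1 by 0.20. The values ran from -0.26 to 0.32, the last for Prl in liver HCD+Sim against HCD, and all 95% intervals lay within -0.60 and 0.68. Tshb was higher on 14 of the 15 liver arrays than on any kidney array and Lhb on 12.

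Among 10 receptor genes and 8 target genes of the hormones, a few were DE in these tissues. In liver Thrsp, a lipogenic gene that responds to thyroid hormone, rose by 1.05 in HCD against Control (adjusted p 0.0112) and fell by 1.06 in HCD+Sim against HCD (adjusted p 0.0136). The first call was lost without Control array C (0.90) or either of HCD arrays A (1.03) and B (0.99), and the other without HCD+Sim array C (-0.65) or either of HCD arrays A (-1.04) and B. Dio1, the liver deiodinase gene, rose by 0.76 in HCD+Gl-1 against HCD (adjusted p 0.00764), not DE without HCD array C (0.70) or HCD+Gl-1 array A (0.69). With only the liver arrays fitted, neither Thrsp nor Dio1 was DE in these comparisons, and with the compared arrays alone Thrsp was not DE in HCD+Sim against HCD. In kidney Socs2, a growth hormone-induced inhibitor of cytokine signalling, rose by 1.07 in HCD+Gl-2 against HCD (adjusted p 1.93e-06), and it was DE whichever array was left out, at 1.01 to 1.13. The prolactin receptor gene Prlr fell in kidney by 0.71 in HCD+Gl-1 against HCD (adjusted p 0.0280), a call that remained only without HCD+Gl-1 array C (-0.80) and was lost without any other single array (-0.64 to -0.74). The other target genes, Igf1 among them, were not DE in any of the 8 comparisons. At an unadjusted p under 0.05 limma gave 6 of the 8 target genes for HCD+Gl-2 against HCD in liver (12.6% of all genes; Igf1, Igfals, Igfbp3, Socs2, Cish and Thrsp), none with an adjusted p below 0.116. It gave 4 in liver HCD against Control (10.3%) and 3 in kidney HCD+Gl-2 against HCD (8.97%). In brain none of the 10 receptor genes and 8 target genes was DE in the 7 comparisons, and limma gave an unadjusted p under 0.05 for 2 and 2 of them in HCD against Control (6.44% of all genes). Ghr, the growth hormone receptor gene, had an unadjusted p under 0.05 with limma in 5 of the 7 brain comparisons. These reuse the same Control and HCD arrays, so they are not 5 separate results. Ghr was higher by 0.38 in HCD+Gl-2 than in Control (adjusted p 0.00115), short of the fold threshold, and by 0.20 in HCD than in Control (adjusted p 0.342). Igf1, the mediator of growth hormone, differed by 0.15 there (adjusted p 0.639).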

How the data were processed

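The samples were 45 hybridizations to the Affymetrix Mouse Gene ST array. The authors applied RMA background correction and quantile normalization (oligo), then ComBat (its batches are not given in the sources used here), and kept 1 probe set per gene, and the log2 values were deposited for 22080 genes. Array depth has no count; precision is limited by 3 arrays per group.

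A linear model with 15 tissue and diet means was fitted to the whole table with limma 3.58.1 in R 4.3.3 (prior degrees of freedom 7.34, residual 30), with Benjamini-Hochberg adjustment over all genes within each contrast. The script was tested on simulated data. DE required a log2 difference over 0.7 in size together with an adjusted p no higher than 0.05, as in the study's methods. An exact permutation test of 3 against 3 arrays cannot give a two-sided p under 0.1. The genes and lists were chosen with earlier results of these data known; named beside the 9 genes are listed genes called in brain, hormone receptors and targets called in liver or kidney, and the genes most like Gh (10), Prl and Pomc (5 each). Other listed genes named as examples were chosen after their values were seen. Prl2c2, Prl3d2 and Asmt were listed but not analysed here. Because by the methods pool C shares RNA with A and B, p-values treat as separate what is partly the same RNA. Results were recomputed from 1 tissue's arrays, from the compared groups alone, without pool C, with a block for pool letter, without dim genes (all group means under 5), with quantile normalization by tissue, with trend and robust moderation, with no fold threshold and with each array left out; the same for listed genes, and list medians without Control array C, were added after seeing the data. Promoters came from a RefSeq table (GRCm38.p6) in which 7 of the 9 genes were matched; those of Gh and Ghrhr were not analysed here.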

Additional observations from a re-analysis of the deposited data

How the results depend on the processing

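Among the 9 genes, 1 was DE (Gh) in brain HCD against Control, in HCD+Gl-1 and HCD+Gl-2 against HCD and in HCD+Gl-1 and HCD+Sim against Control, and none in HCD+Sim against HCD or HCD+Gl-2 against Control. With the brain arrays only, and with the compared groups only, the count was 0 in HCD against Control, in HCD+Gl-1 and HCD+Gl-2 against HCD and in HCD+Sim against Control; the standard error of Gh was larger there. With pools A and B only it was 2 (Gh and Prl) in HCD against Control, 0 in HCD+Gl-1 against HCD and 1 in HCD+Gl-2 against Control. With each array left out it was 1 throughout in HCD against Control and HCD+Gl-1 against Control, 0 to 1 in HCD+Gl-1 and HCD+Gl-2 against HCD and in HCD+Sim against Control, and 0 throughout in the other brain comparisons and in liver and kidney. With the pool letter as a replicate block the count in HCD+Gl-1 against HCD was 0, and the block changed no other count of the 9 genes; arrays with the same letter did not deviate together (r of deviations from -0.27 to 0.19), so the letters do not pair the samples. The filter on dim genes left out Pou1f1 and changed no count, nor did the other normalization and moderation.

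The correlation of Rdh18-ps with Pomc reversed to -0.16 over the 10 arrays of pools A and B, and that of Gm29779 fell to 0.10, while those of the 10 genes most like Gh lay between 0.71 and 0.86. Cdhr1 and Doc2g were not DE in HCD against Control or HCD+Gl-2 against HCD with the brain arrays only, and in HCD against Control with the compared groups only. The causes were not tested. Values near the background limit what can be seen of Pomc, Cga, Tshb, Lhb, Fshb, Pou1f1 and Ghrhr. No brain array stood above all liver and kidney arrays for these probe sets, apart from 2 for Pomc and 2 for Cga. A brain difference in these genes could therefore go undetected.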
